A study of Homo sapiens with 6 samples.

Results

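De novo purine synthesis is the enzymatic route by which cells build the purine ring on a ribose phosphate. Here it is represented by 10 mRNAs, those of *PRPS1*, *PPAT*, *GART*, *PFAS*, *PAICS*, *ADSL*, *ATIC*, *IMPDH1*, *IMPDH2* and *GMPS*. They were found by gene name in the count table, where each name had 1 row, so they are 10 of 60655 listed genes. The data are RNA immunoprecipitation sequencing (RIP-seq) libraries from WaGa, an established Merkel cell carcinoma (MCC) cell line that carries Merkel cell polyomavirus. The cells are labelled wild type and untreated in both groups. RNA was recovered with an antibody against IGF2BP3 (IMP3 in the labels) in 3 libraries and with IgG, the negative control, in the other 3, and both groups have replicates numbered 1 to 3. The comparison asks which RNAs come down with IGF2BP3 more than with IgG. All libraries come from this cell line, and no library of unprecipitated RNA was analysed here. The series calls its replicates independent, but nothing says whether they came from separate cultures or whether same-numbered libraries share a lysate. The p-values therefore set differences against the spread between these libraries only, and may not hold for other cultures.

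In the pathway, *PRPS1* encodes an enzyme that makes phosphoribosyl pyrophosphate (PRPP), and the next 6 enzymes turn PRPP into inosine monophosphate. *IMPDH1*, *IMPDH2* and *GMPS* lead from there to the guanine nucleotides. The route feeds DNA, RNA and energy metabolism, and proliferating tumor cells rely on it. IGF2BP3 is an oncofetal RNA-binding protein that affects the stability and translation of the mRNAs it binds.

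The list was drawn up around *PAICS*, which was selected on its read counts in these same libraries, where it was already known to be higher in the IGF2BP3 IP. The differences of the 10 members between IGF2BP3 IP and IgG IP are therefore given as a description, with intervals and without p-values. Library totals ran from 9758759 to 14886414 counts. The replicate 1 libraries stood apart in both groups, with a chi-square per degree of freedom of 16.3 to 19.7 against the other replicates of their group, where replicates 2 and 3 differed by 2.13 and 3.06. All 14 MCC markers examined (*KRT20*, *ATOH1*, *CHGA* and others) had a mean above 1 TPM, the unit of level per transcript length used here, and ran from 10.6 to 771 TPM in single libraries. Of 12 markers of other skin and blood cells, 6 were listed at 0 in every library, and only *DCN*, a fibroblast proteoglycan, had a mean above 1 TPM, with 44.0 TPM in the IgG IP and 38.9 TPM in the IGF2BP3 IP. The summed level of these 12 overlapped between groups, with 36.7 to 55.0 TPM in the IgG IP and 29.8 to 49.0 TPM in the IGF2BP3 IP.

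*PAICS* was 1.68-fold higher in the IGF2BP3 IP and *PFAS* 1.67-fold, while 7 other members differed by less than 1.5-fold in either direction over their whole 95% interval. The remaining member, *IMPDH1*, had at most 24 counts in a library and its interval was too wide to place it. Of the 10 members, 1 passed both thresholds, a 1.5-fold change and an adjusted p-value (Benjamini-Hochberg, over all tested genes) under 0.05 by the quasi-likelihood test of edgeR. This was *PAICS*, and 1.16% of all 14507 tested genes were called higher by the same rule. None of the members was called lower, nor was any of the tested genes in this fit (0%, where 449 had an unadjusted p-value under 0.05 on the lower side and DESeq2 called 0). Some other fits called genes lower, none of them a member. These were 15 genes with the replicate number as a block and 37 with the block and a GC correction. Without both replicate 1 libraries 8 genes were called lower, and without a filter on low counts 1. The median log2 fold change was -0.01 over the 10 members and -0.01 over all tested genes, and 5 members were above 0. All 10 passed the filter on low counts.

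**Figure D1:**
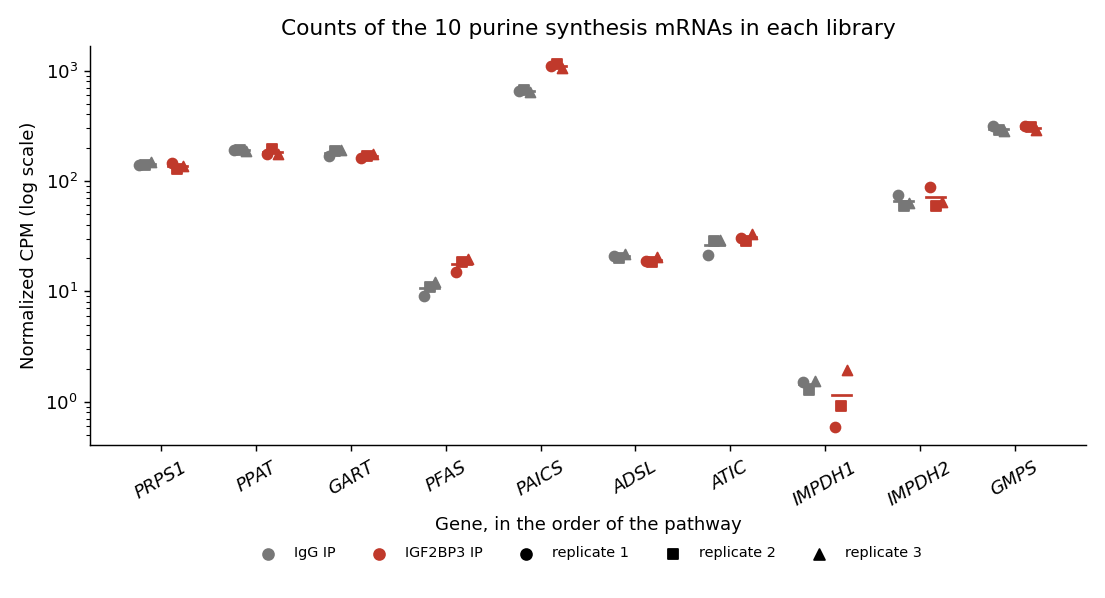
Normalized CPM (log scale) of the 10 mRNAs in the 6 libraries, with gray points for IgG IP, red points for IGF2BP3 IP, symbols for replicate numbers and lines for group means. *PAICS* sits at 644 to 672 CPM in the IgG IP and at 1057 to 1144 CPM in the IGF2BP3 IP, and apart from it only *PFAS* has groups that do not overlap.

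*PAICS* (ENSG00000128050.9) encodes a bifunctional enzyme that carboxylates aminoimidazole ribonucleotide and then joins it to aspartate. On GRCh38 it occupies bases 56435741 to 56464578 of chromosome 4, plus strand, in version 44 of GENCODE. Its canonical transcript has 9 exons and 6371 nt, of which 1278 nt are coding and 5040 nt are 3′ untranslated region (3′UTR). That 3′UTR was longer than in 91.2% of the tested genes with a coding transcript. In order of replicate number, *PAICS* had 6067, 10028 and 7979 counts with IgG and 13152, 15143 and 13008 counts with the IGF2BP3 antibody.

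As normalized CPM (counts scaled to a common library size), *PAICS* had 658, 672 and 644 in the IgG IP against 1104, 1144 and 1057 in the IGF2BP3 IP. The groups are far apart, and the libraries within each group lie close together, the replicate 1 libraries included. The means were 658 ± 14.2 (SD, n = 3) and 1102 ± 43.3 (SD, n = 3) CPM. The log2 fold change was 0.74 (standard error 0.07, 95% interval 0.575 to 0.91), and the lower end of this interval lies just below the 1.5-fold minimum of 0.585. Within same-numbered pairs of libraries the log2 differences were 0.75, 0.77 and 0.72. The values are of RNA recovered from bulk lysates, in which the number of cells that hold an RNA and its amount per cell cannot be told apart.

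*PAICS* ranked 115 by mean level in counts among the 14507 tested genes and 2 among the 169 RNAs called higher. Its fold change was less extreme, with rank 378 among all tested genes and rank 112 among the 169. In counts, *PAICS* thus ranked high among the recovered RNAs, with a moderate difference between the IPs and little spread of normalized CPM between replicates. Counts rise with transcript length, and the level in the cells was not measured. In TPM, *PAICS* had a wider spread, with 254 ± 44.9 (SD, n = 3) in the IgG IP and 424 ± 58.7 (SD, n = 3) in the IGF2BP3 IP. It took 0.0622% to 0.0674% of all counts in the IgG IP and 0.108% to 0.116% in the IGF2BP3 IP. The 7 *PAICS* pseudogenes in the table had no more than 4 counts in any library, so reads assigned to them could alter these values little. Shared reads that were dropped in counting would not show in these counts, and their part was not tested. Without both replicate 1 libraries its log2 fold change was 0.74. The call on *PAICS* was lost, at a log2 fold change of 0.73, when IgG IP replicate 3 was left out (0.0470% of tested genes called higher), and, at 0.71, when IGF2BP3 IP replicate 2 was left out (0%).

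*PFAS* (ENSG00000178921.14) encodes the glutamine-dependent synthase that acts shortly before *PAICS*. Its gene occupies bases 8247618 to 8270491 of chromosome 17, plus strand, and its canonical transcript has 28 exons and 5369 nt. It was far less abundant, with 83, 162 and 150 counts for IgG and 180, 246 and 243 for IGF2BP3. As normalized CPM these are 9.0, 10.9 and 12.1 in the IgG IP against 15.1, 18.6 and 19.8 in the IGF2BP3 IP. The groups did not overlap. This held for *PAICS* and *PFAS*, or 2 members, with the IGF2BP3 IP above (12.0% of all tested genes), and for 0 members with it below (8.69%).

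The log2 fold change of *PFAS* was 0.74 (standard error 0.16, 95% interval 0.37 to 1.10), nearly that of *PAICS*, with an interval more than double as wide. Its differences within pairs were 0.74, 0.77 and 0.70, and so close to those of *PAICS* in every pair. *PFAS* did not pass the thresholds (with a minimum of 0.58 on the log2 scale) in the fit with condition as the only term. It passed them with the replicate number as a block, where 2 members were called higher against 3.56% of all tested genes, and with DESeq2 (2 members, against 2.22%). It also passed without a filter on low counts (2 members, against 1.23%), without IGF2BP3 IP replicate 1 (2 members, against 1.64%) and without both replicate 1 libraries (2 members, against 3.18%), where its log2 fold change was 0.75. Corrected for GC content it was at 0.56, below that minimum, and its canonical transcript is 58.2% GC against a median of 47.7% over tested genes. In TPM the groups of *PFAS* overlapped, with 1.76, 3.05 and 5.29 in the IgG IP against 3.44, 4.74 and 7.07 in the IGF2BP3 IP. The gene overlaps *CTC1* on the other strand without shared exonic bases, and *CTC1* was at 0.22 on the log2 scale (standard error 0.17).

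**Figure D2:**
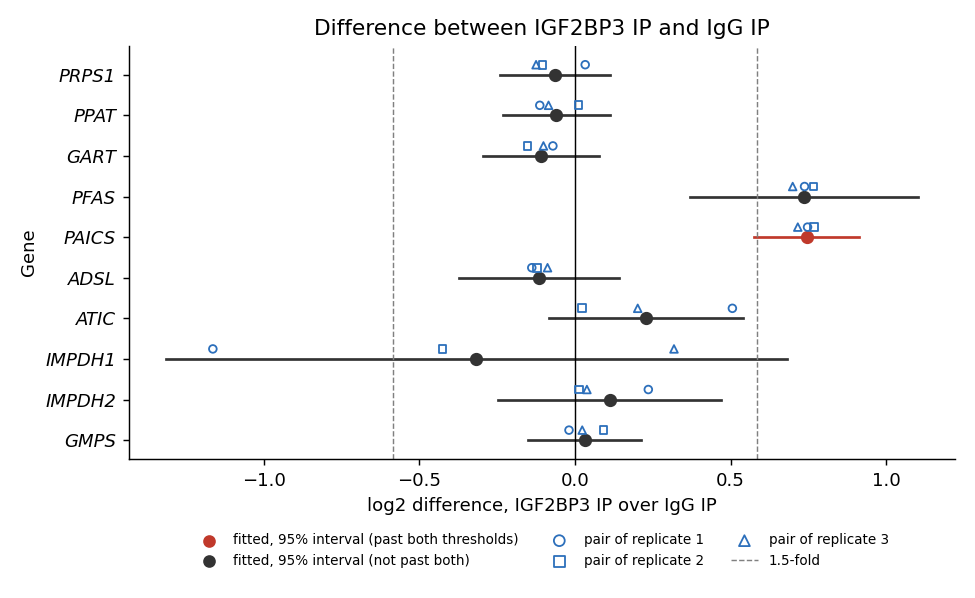
Fitted log2 differences between IGF2BP3 IP and IgG IP for the 10 mRNAs with 95% intervals (filled points and bars), and the log2 differences within same-numbered pairs (open blue symbols). Dashed lines mark 1.5-fold in either direction. *PAICS* at 0.74 and *PFAS* at 0.74 stand to the right, the intervals of 7 mRNAs lie between the dashed lines, and that of *IMPDH1* crosses both.

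*PPAT* (ENSG00000128059.8) encodes the amidotransferase of the first committed step and is the head-to-head neighbor of *PAICS*. It runs on the minus strand of chromosome 4 from 56393362 to 56435615, so that the annotated starts of both genes are separated by 125 bp. The DNA between them is shown because both genes are transcribed outward from it. Any part of this DNA in the recovery of their mRNAs was not tested. The DNA is given on the plus strand, from the *PPAT* side to the *PAICS* side, is 76.0% GC and comes from RefSeq (GRCh38.p14, chr4:56435616-56435740).
PPAT to PAICS: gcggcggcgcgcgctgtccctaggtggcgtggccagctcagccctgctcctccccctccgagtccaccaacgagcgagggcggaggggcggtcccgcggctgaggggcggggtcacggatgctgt

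*PPAT* had 189, 192 and 187 normalized CPM in the IgG IP against 175, 193 and 176 in the IGF2BP3 IP. The groups overlapped, and IGF2BP3 IP replicate 2 was the highest of the 6 libraries. The log2 fold change was -0.06 (standard error 0.08, 95% interval -0.23 to 0.11). The gene on the other side of *PAICS*, *SRP72*, starts 3039 bp beyond it on the same strand and had a log2 fold change of -0.14 (95% interval -0.35 to 0.06).

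For *PRPS1*, *GART* and *ADSL* the IPs differed by less than 1.5-fold over the whole interval. *PRPS1*, on chromosome X, had 139 to 149 normalized CPM in the IgG IP and 129 to 144 in the IGF2BP3 IP, with a log2 fold change of -0.06 (95% interval -0.24 to 0.11). *GART*, which encodes a trifunctional enzyme, had 168 to 189 and 160 to 176 normalized CPM, with a log2 fold change of -0.11 (95% interval -0.30 to 0.08). *ADSL*, the lyase that follows *PAICS*, had 19.9 to 21.7 and 18.3 to 20.4 normalized CPM, with a log2 fold change of -0.12 (95% interval -0.37 to 0.14). All 3 had overlapping groups. *GART* and *ADSL* were lower in the IGF2BP3 IP in 3 of 3 pairs, as were 23.5% of all tested genes.

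*ATIC*, which encodes the bifunctional enzyme of the last steps to inosine monophosphate, had 21.4, 28.3 and 29.0 normalized CPM in the IgG IP against 30.4, 28.8 and 33.3 in the IGF2BP3 IP. The low value was that of IgG IP replicate 1, and IGF2BP3 IP replicate 2 lay within the range of the IgG IP. At 0.23, the log2 fold change had a standard error of 0.14 (95% interval -0.08 to 0.54), and without IgG IP replicate 1 it was 0.11. *PAICS*, *PFAS*, *ATIC* and *IMPDH2* were higher in the IGF2BP3 IP in 3 of 3 pairs, as were 25.1% of all tested genes.

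In the branch to the guanine nucleotides, *GMPS* encodes the synthase of the last step and was the second most abundant member in counts. It had 283 to 317 normalized CPM in the IgG IP and 287 to 313 in the IGF2BP3 IP, with a log2 fold change of 0.03 (95% interval -0.15 to 0.21). *IMPDH2*, the IMP dehydrogenase isoform of proliferating cells, had 75.3, 59.0 and 63.1 normalized CPM in the IgG IP against 88.7, 59.5 and 64.8 in the IGF2BP3 IP. Replicate 1 was the highest library of both groups, and the log2 fold change of 0.11 (95% interval -0.25 to 0.47) turned to -0.08 without IGF2BP3 IP replicate 1. *IMPDH1*, the isoform with the lower level here, had 14, 19 and 19 counts in the IgG IP against 7, 12 and 24 in the IGF2BP3 IP. Its log2 fold change was -0.32, with a standard error of 0.44 and a 95% interval from -1.31 to 0.68, which includes a 1.5-fold change in either direction. Of 10 *IMPDH1* pseudogenes, 4 had a count, with at most 16 in a library, which is close to the counts of *IMPDH1* itself, so reads shared with them make its value uncertain.

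The levels of different mRNAs were compared per length, in the TPM values of the authors. In the IgG IP *PAICS* was highest, with 203, 286 and 274 TPM. *PRPS1* followed with 104, 190 and 224 TPM, and *PAICS* was above *PRPS1* in 3 of 3 libraries although their ranges overlapped. *GMPS* came next with 89.5 to 118 TPM, and its range did not reach that of *GART*, with 57.7 to 85.9 TPM. *GART*, *ADSL* (56.7 to 65.8 TPM), *ATIC* (40.2 to 63.2 TPM), *PPAT* (39.8 to 59.8 TPM) and *IMPDH2* (45.4 to 54.5 TPM) formed a middle tier in which each neighbor overlapped the next. *PFAS* (1.76 to 5.29 TPM) and *IMPDH1* (0.50 to 2.25 TPM) were far below and overlapped each other. The mRNAs of *PAICS* and *PFAS*, the members with the largest differences, thus stood near opposite ends of this order.

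**Figure D3:**
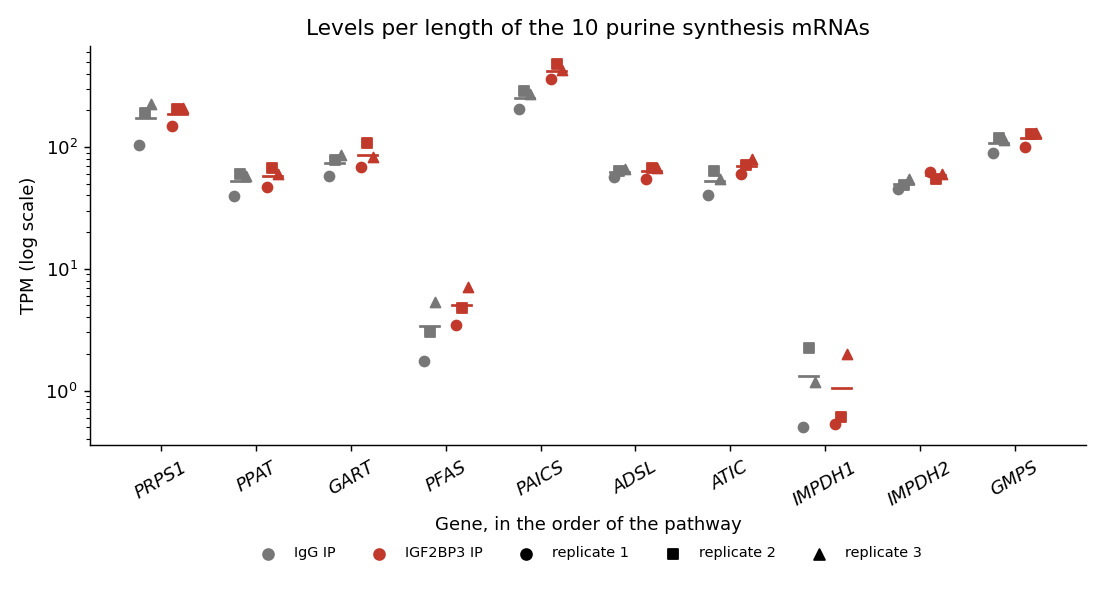
TPM (log scale) of the 10 mRNAs in the 6 libraries, with gray points for IgG IP, red points for IGF2BP3 IP, symbols for replicate numbers and lines for group means. *PAICS* is highest in every library, from 203 TPM in IgG IP replicate 1 to 479 TPM in IGF2BP3 IP replicate 2, and replicate 1 is the lowest library of its group for most members.

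*PAICS* was higher in TPM as well, with 362, 479 and 431 in the IGF2BP3 IP, so that its groups did not overlap in this unit either. As a share of the summed TPM of the 10 mRNAs, *PAICS* made up 31.8%, 31.3% and 29.3% in the IgG IP against 39.8%, 40.5% and 38.2% in the IGF2BP3 IP. The share of *PRPS1* was 16.3% to 23.9% in the IgG IP and 16.5% to 18.5% in the IGF2BP3 IP, and that of *GMPS* was 12.2% to 14.0% and 10.8% to 11.5%. Shares of a sum fall when *PAICS* rises, and *GMPS* itself was not lower. Its mean was 107 TPM in the IgG IP and 119 TPM in the IGF2BP3 IP. The summed level itself ran from 639 to 936 TPM in the IgG IP and from 909 to 1183 TPM in the IGF2BP3 IP, with replicate 1 the lowest in both groups. In TPM the signs of *PRPS1*, *PPAT*, *GART* and *ADSL* turned, with log2 differences of 0.17, 0.15, 0.22 and 0.02 on the log2(TPM + 1) scale, where the median of all tested genes was 0.11. No gene of the table passed the thresholds on that scale (limma-trend), where 476 had a 1.5-fold higher level and an unadjusted p-value under 0.05, and *PAICS* was at 0.74.

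**Figure D4:**
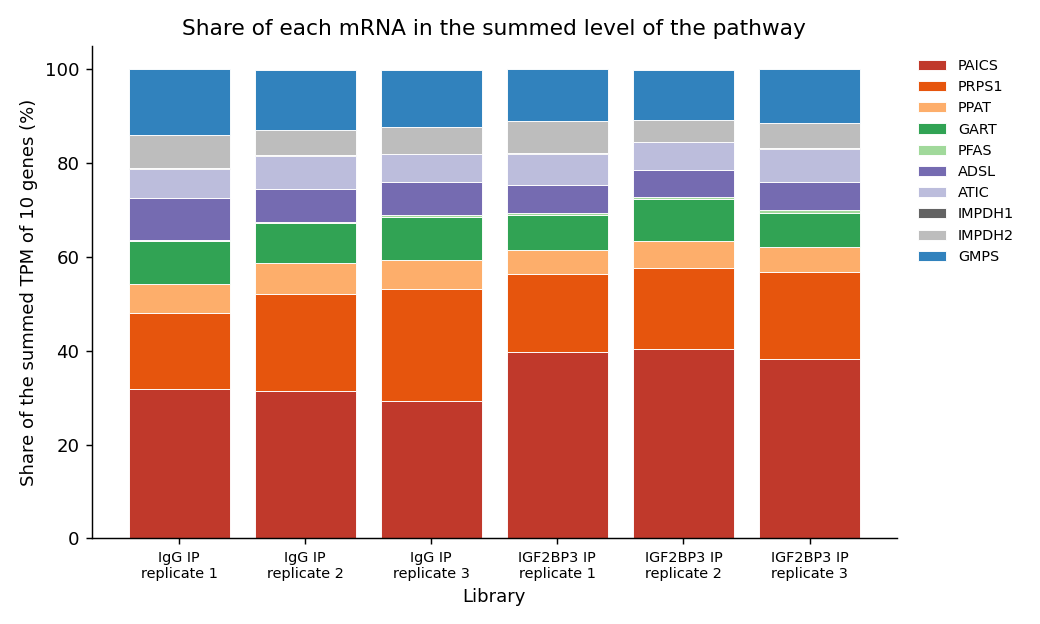
Stacked shares (percent, from 0) of the 10 mRNAs in their summed TPM in each of the 6 libraries. *PAICS*, at the bottom in red, takes 29.3% to 31.8% in the IgG IP and 38.2% to 40.5% in the IGF2BP3 IP.

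Counts and TPM differed most for *ADSL*. Its counts were 192 to 297 per library at 55.0 to 67.3 TPM, and the counts per TPM and kilobase of canonical transcript were 0.106 times those of the median tested gene, lower than in all but 1.20% of tested genes. *ATIC* was at 0.346 times the median gene, *GMPS* at 0.442, *PRPS1* at 0.543, *PAICS* at 0.593 and *IMPDH1* at 0.607 times. The other members ran from 0.920 (*PFAS*) to 1.32 (*PPAT*). *ADSL* shares 1344 exonic bases with ENSG00000284431, a same-strand gene, which had at most 13 counts in a library. The part of this overlap in the low counts was not tested. Its difference between the IPs was -0.12 in the counts and 0.02 on the log2(TPM + 1) scale. *IMPDH2* shares 1680 exonic bases with ENSG00000290315, also on the same strand, which is not among the genes listed in the counts.

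The 10 mRNAs come from 8 chromosomes. The lengths of their canonical transcripts ran from 1651 nt (*IMPDH2*) to 8631 nt (*GMPS*). The 3′UTR of *GMPS*, at 6328 nt, was longer still than that of *PAICS*. UGGAC is a sequence reported as the consensus of IGF2BP proteins, which favor N6-methylated mRNAs. It was searched in the sense strand of the canonical transcripts, and 89.4% of the 14479 tested transcripts with a sequence hold it, as do 97.0% of those called higher. *PAICS* holds it 4 times, or 0.63 times per kilobase, against a median of 1.08 per kilobase over tested transcripts and 1.35 over those called higher. *PFAS* holds it 12 times, or 2.24 times per kilobase, and *PPAT* 2 times, or 0.54 per kilobase. The density was thus below both medians in *PAICS* and above them in *PFAS*. Called and tested transcripts were not matched for length or GC content, so their shares and medians are a description only. The highest density among the members was that of *IMPDH2*, with 3.03 per kilobase. The other motif searched, CAUA, CAUC or CAUU, had 11.8 matches per kilobase in *PAICS* and 7.45 in *PFAS*, against a median of 10.8, and 99.6% of the transcripts hold it.

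Of the UGGAC matches of *PAICS*, 3 are shown with their flanks, as places where the consensus occurs in the mRNA that was called higher. The first lies in the coding sequence and the others in the 3′UTR. Each line gives 25 bases from GENCODE version 44, 5′ to 3′, with the match in capitals, named by the position of its first base in the transcript.
PAICS 512: uuugcuuugcUGGACuucuuauagg
PAICS 2826: cucguaauuuUGGACugccacacau
PAICS 3409: cuugaacuccUGGACucaagcugca
No binding site was mapped in these data, so a match is a description of the sequence only.

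The routes around purine synthesis were examined through 4 lists with 62 genes in all, of which 51 were tested. None was called higher or lower in edgeR's quasi-likelihood test (1.16% and 0% of all tested genes), where an unadjusted p-value under 0.05 was reached by 5 on the higher and 3 on the lower side. Of all 14507 tested genes, 1410 reached that level on the higher and 449 on the lower side. With DESeq2, 1 was called higher. The median log2 fold change of the 51 was -0.07. Largest was *SLC19A1*, the reduced folate carrier, with 2.06, 2.01 and 2.42 normalized CPM in the IgG IP against 4.95, 4.23 and 4.15 in the IGF2BP3 IP. It rested on 19 to 59 counts per library. Its groups did not overlap, and at a log2 fold change of 1.03 (standard error 0.22) its adjusted p from edgeR was 0.063. It was called higher with the replicate block, without a filter and without both replicate 1 libraries (edgeR adjusted p = 0.0040, 0.027 and 0.039). In TPM its groups overlapped, with 0.59, 1.20 and 1.74 in the IgG IP against 1.69, 2.37 and 1.59 in the IGF2BP3 IP, and its difference on the log2(TPM + 1) scale was 0.43, under the 1.5-fold minimum.

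*CAD*, the multifunctional enzyme that starts pyrimidine synthesis, had 10.1, 9.92 and 9.68 normalized CPM in the IgG IP against 13.0, 17.4 and 17.2 in the IGF2BP3 IP. The groups did not overlap, and replicate 1 was the lowest library of the IGF2BP3 IP. At a log2 fold change of 0.69 (standard error 0.15) its adjusted p from edgeR was 0.077. It was called higher with the replicate block (edgeR adjusted p = 0.00039), with DESeq2 (adjusted p = 0.023), without a filter (edgeR adjusted p = 0.016), without IGF2BP3 IP replicate 1 (edgeR adjusted p = 0.025) and without both replicate 1 libraries (edgeR adjusted p = 0.00033). Corrected for GC content, *CAD* was at 0.52, under the 1.5-fold minimum, and on the log2(TPM + 1) scale it was 0.15.

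At an unadjusted p-value from edgeR under 0.05, 1410 of all 14507 tested genes were higher and 449 lower. By list, the folate, serine and glycine genes had 3 of 16 tested members higher at that level and 0 lower, with a median log2 fold change of 0.09. Among them *PHGDH*, the first enzyme of serine synthesis, was at 0.32 on the log2 scale (adjusted p = 0.21 from edgeR). The pyrimidine and deoxynucleotide genes had 1 of 13 higher and 1 lower at that level, the latter *CMPK1*, a nucleoside monophosphate kinase, at -0.19 (adjusted p = 0.30 from edgeR). Of 19 tested salvage and interconversion genes, 1 was higher and 1 lower at that level. These were *APRT*, which salvages adenine, at 0.43 (adjusted p = 0.37 from edgeR), and *HPRT1*, which salvages hypoxanthine and guanine, at -0.24 (adjusted p = 0.30). In PRPP supply, with 3 tested genes, *PRPSAP2*, a regulatory partner of PRPP synthetases, was at -0.23 (adjusted p = 0.23 from edgeR) and *PRPS2*, the paralog of *PRPS1*, at -0.15 (adjusted p = 0.51).

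**Figure D5:**
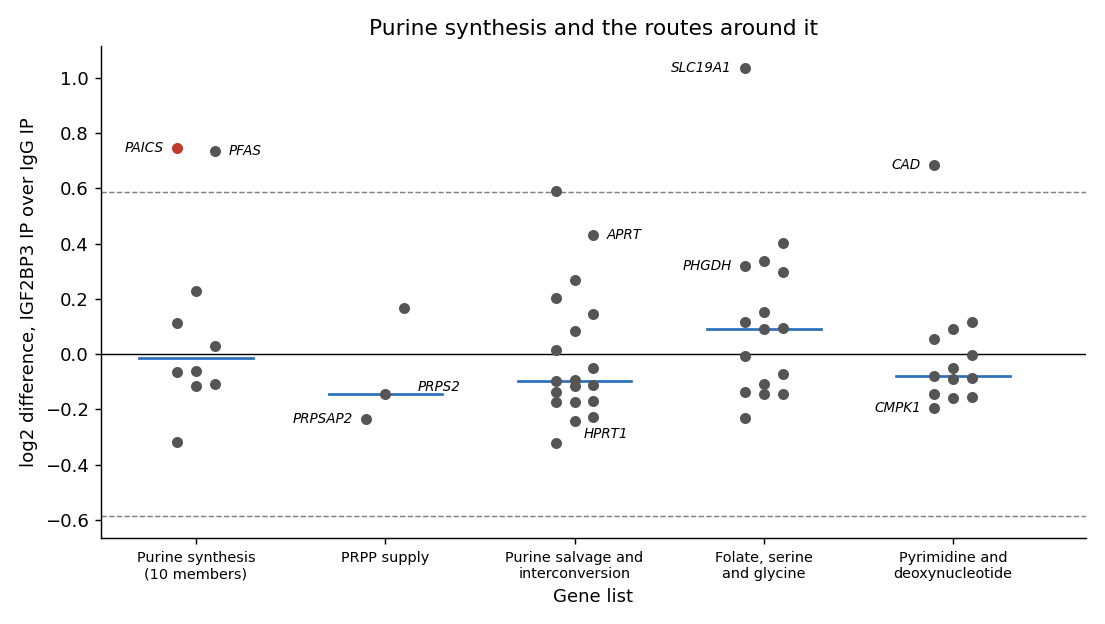
Log2 differences between IGF2BP3 IP and IgG IP for the 10 purine synthesis mRNAs and for the tested genes of 4 related lists. Each point is a gene, blue lines are list medians and dashed lines mark 1.5-fold. *PAICS*, in red, was the only gene past both thresholds. *PFAS* (0.74), *SLC19A1* (1.03) and *CAD* (0.69) lie above the upper dashed line without a call. *AK1*, an adenylate kinase of the salvage list, lies on it (0.59, adjusted p = 0.41 from edgeR) and is named because its point was seen there.

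Over the 6 libraries, the genes whose log2 normalized CPM followed those of *PAICS* most closely were *TRIM14* (Pearson r = 0.999), *SLC35C2* (0.998), *NOP14-AS1* (0.997), *PTDSS1* (0.995) and *PLD3* (0.995), out of 13310 genes at least as abundant as the lowest member. The 6 points fall into 2 groups of 3 libraries, so r mostly reflects the step between the IPs. *TRIM14* was called higher, with a log2 fold change of 0.90, and the others had log2 fold changes from 0.28 to 0.48 without a call. *NOP14-AS1* is an antisense RNA, and its reads could not be told apart from those of its partner if counting ignored strand. Among the members, *PFAS* followed *PAICS* best, with r = 0.89, and *ATIC* had 0.59. The other 7 members lay between -0.77 (*ADSL*) and 0.29 (*GMPS*).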

How the data were processed

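RIP-seq libraries from WaGa cells were compared, 3 from IGF2BP3 IP and 3 from IgG IP, grouped by the sample labels. The authors aligned paired-end reads to GRCh38 with STAR 2.7.9a and name RSEM with GENCODE annotation for quantification. They deposited raw counts per gene, which are whole numbers, and TPM values. How the reads were counted, and whether strand was used, are not given in the sources used here. The deposited FPKM values were not used.

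Genes were filtered (filterByExpr), normalized (TMM) and tested with edgeR 4.0.16 (R 4.3.3, quasi-likelihood test, condition only). Calls used the study's thresholds, but the study tested with DESeq2, which is an alternative here. The DESeq2 fit here called 281 genes higher, *PAICS* and *PFAS* among them. Standard errors are the log2 fold change over the root of its F statistic. Differences on single pairs use log2 CPM with a prior count of 2. Alternatives were DESeq2 1.42.0, RLE factors, library totals, no filter beyond 1 count, limma-trend on TPM (limma 3.58.1, pseudocount 1 or 0.1), a per-library loess correction (span 0.5) for transcript GC content, a replicate block, and leaving out libraries. Fits were tested on simulated counts with the same spread (dispersion) for every gene and no replicate or GC effect. That test thus does not cover these effects or limma-trend on TPM. Transcript properties come from GENCODE version 44 canonical transcripts, found for 60481 of 60655 genes.

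Deviations from the group means correlated across genes between libraries of one number (0.57, 0.28 and 0.23). All were over 0.1, so the numbers were treated as pairing in a fit with a replicate block, given beside the fit without it. The cross pairs of replicates 2 and 3 were as high, at 0.27 and 0.28, so the numbers of these replicates are not set apart by it.

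The members, lists and tests were chosen with earlier results of these data known. The text names all members, the 5 genes most correlated with *PAICS*, and some of the genes that could share reads with a member. In each related list it names the called genes or, with none called, the 2 with the smallest p-values. On the other strand, ENSG00000270147 shares 121 exonic bases with *PPAT* and had at most 13 counts in a library. ENSG00000272434 shares 132 with *IMPDH2*, also on the other strand, and had at most 4. The flanks of 1 UGGAC match of *PAICS* are not reported here.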

Additional observations from a re-analysis of the deposited data

How the results depend on the processing

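*PAICS* and *PFAS* were higher in the IGF2BP3 IP under all 16 alternatives, from 0.71 to 0.79 and from 0.52 to 0.84 on the log2 scale. The number of members called higher was 1. It was 2 (*PAICS* and *PFAS*) with DESeq2, without a filter, with the replicate block and without both replicate 1 libraries, and 0 with limma-trend on log2(TPM + 1) and log2(TPM + 0.1). In the related lists, against 0, 1 was called higher with DESeq2, 2 without a filter, 2 with the replicate block, 1 with the replicate block and GC correction, and 2 without both replicate 1 libraries. Over all genes, against 169 higher and 0 lower, the calls were 281 with DESeq2, 359 and 1 without a filter, 0 with limma-trend on either TPM scale, 82 with the GC correction, 517 and 15 with the replicate block, 269 and 37 with both, and 466 and 8 without both replicate 1 libraries. *PAICS* moved by more than its replicate spread to 0.79 with the GC correction, without and with the replicate block. The median of the members was 0.20 on both TPM scales, where that of all genes was 0.11 and 0.13.

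Leaving out one library in turn gave 0 to 244 genes called higher in all, 0 to 2 members and 0 to 1 gene of the related lists. The members' count was 0 without IgG IP replicate 3 or IGF2BP3 IP replicate 2, and 2 without IGF2BP3 IP replicate 1. The replicate block changed no call of the other members. *IMPDH1*, with 7 to 24 counts per library, ran from -0.94 to 0.02.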

Other observations

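The gap between counts and TPM seen for *ADSL* was also present in the folate genes. *MTHFS*, the synthetase that recycles 5-formyltetrahydrofolate, had 7 to 13 counts per library and did not pass the count filter, yet its mean level was 53.9 TPM in the IgG IP and 46.4 TPM in the IGF2BP3 IP. *GCSH*, the lipoyl carrier of the glycine cleavage system, had 26 to 52 counts at mean levels of 103 and 97.4 TPM. Both were chosen after their values were seen.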
